A study of Homo sapiens with 12 samples.

Results

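The 8 genes described here regulate the sterol-responsive transcription factors SREBP1 and SREBP2 or move cholesterol inside the cell. They were chosen by name as SREBF1, SREBF2, SCAP, INSIG1, INSIG2, STARD4, NPC1 and NPC2, out of 59172 features in the table, and all 8 were among the 18062 genes that passed the filter on low values. The set was named for uptake of LDL as well, but none of the 8 encodes a lipoprotein receptor, so uptake is represented by the genes that handle cholesterol after it has reached the lysosome. RNA was sequenced from HCT-116, an established human colorectal carcinoma cell line, in 4 groups of 3 libraries. The first group had SHP2 silenced (its titles carry the prefix sh) and by its titles received CPT-11, for 24 h. Its treatment label also names lovastatin for 4 h, which its titles do not. In the second group, wild-type cells were pretreated with lovastatin for 4 h and given CPT-11 for 24 h. The third group was wild-type cells given CPT-11 for 24 h, and the fourth was untreated wild-type cells. CPT-11 (irinotecan) is a prodrug of a topoisomerase I inhibitor, and lovastatin blocks the rate-limiting step of cholesterol synthesis. SHP2 is a tyrosine phosphatase encoded by PTPN11. No group received lovastatin or lost SHP2 without CPT-11, and none was labelled as carrying a control hairpin.

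SREBP1 and SREBP2 are made as membrane proteins of the endoplasmic reticulum, where they are bound by SCAP, a cholesterol sensor. When sterols are low, SCAP escorts them to the Golgi, where proteases release the part that enters the nucleus and switches on genes of cholesterol and fatty acid synthesis. When sterols are high, the INSIG proteins hold SCAP in the endoplasmic reticulum. Cholesterol from endocytosed lipoproteins leaves the lysosome through NPC2 and NPC1, and STARD4 carries sterol between membranes in the cytosol.

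Each library held 14447847 to 16224271 reads assigned to genes. The values are FPKM (reads per gene per length, scaled by library), and group values are means ± SD (n = 3 libraries). A fold change is the log2 difference of FPKM + 1 ± SE from limma, with Benjamini-Hochberg adjustment over all 18062 genes at a threshold of 0.05. Separate cultures behind the libraries of a group are not stated in the labels, so the p-values cover a spread that may be technical. PTPN11 measured 6.01 to 7.15 FPKM in the silenced libraries and 43.2 to 55.4 FPKM in the other groups. The treatment label of the silenced samples also names lovastatin, unlike their titles, by which they were grouped. HMGCS1, a sterol synthesis gene that served as a check of lovastatin, measured 24.9 to 25.8 FPKM in the silenced libraries, 101 to 105 FPKM with lovastatin, 25.2 to 31.2 FPKM with CPT-11 alone and 28.1 to 31.0 FPKM in untreated cells. Of 8 markers of colon epithelium 6 passed the filter, and their list summed to 847 to 1220 FPKM per library. COL1A1 was the 1 of 5 fibroblast markers to pass (list sum 3.16 to 5.94 FPKM) and VWF the 1 of 4 endothelial markers (0.186 to 0.367 FPKM). The lists for leukocytes and for adipocytes and liver had 0 of 4 markers past the filter each, and no marker of any list was at 0 in all libraries. Since these are bulk samples, fewer cells of a kind and less RNA per cell cannot be told apart. 

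CPT-11 replicate 3 stood apart from replicates 1 and 2. Slopes on GC content were fitted to log2 values relative to each gene's mean over the 12 libraries, so 0 stands for the average of the series. In replicate 3 these relative values changed by 0.08 per 10 points of GC, against -0.15 and -0.17 in the other CPT-11 libraries. The same slope was 0.10 to 0.13 in silenced libraries, 0.01 to 0.07 with lovastatin and -0.14 to -0.01 in untreated libraries, so values without that library, or with a correction for GC content and length, are given beside the results where they move a call. With the values scaled to the total of assigned reads instead of the deposited factors, the genes called split differently. For silenced cells against CPT-11 alone 2363 were higher and 1637 lower, beside 1807 and 2167 as deposited, and against lovastatin 633 and 675, beside 466 and 769. Against untreated cells the split was 4329 and 2571 for silenced cells, beside 3308 and 3520, then 3245 and 1950 for lovastatin, beside 2654 and 2580, and 1909 and 1003 for CPT-11 alone, beside 1598 and 1391. Among the 8 genes this scaling ended 2 calls, SREBF2 with CPT-11 against untreated cells (adjusted p = 0.10) and SREBF1 in silenced against untreated cells (adjusted p = 0.088), and 2 further differences passed, SREBF1 in silenced cells against CPT-11 (adjusted p = 0.042) and INSIG2 in silenced against untreated cells (adjusted p = 0.019).

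With lovastatin pretreatment 3 of the 8 genes were higher than with CPT-11 alone, INSIG1, STARD4 and SREBF2, of which the SREBF2 call was lost under several alternatives. This comparison called few genes, 0.393% of all tested genes higher and 0.0720% lower, and 0 of the 8 were lower (0 also at an unadjusted p under 0.05, and 0 by voom, limma's weighted fit of the reads recovered from the FPKM values). The median log2 fold change of the 8 genes was 0.44, against 0.0035 over all tested genes. Without CPT-11 replicate 3, 7 of the 8 were higher, and far more of all genes were called, 2871 higher and 2584 lower, beside 71 and 13 with all libraries. In silenced cells given CPT-11, compared with lovastatin and CPT-11, 3 of the 8 were lower (INSIG1, STARD4 and NPC1), beside 4.26% of all tested genes, and 0 were higher (0 at an unadjusted p under 0.05 and by voom), beside 2.58%. The median of the 8 was -0.26, against -0.0017 over all tested genes, and 5 were lower without CPT-11 replicate 3, when 1445 of all genes were lower, beside 769. These 2 comparisons share the lovastatin libraries.

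Silencing of SHP2 under CPT-11 gave 2 calls among the 8 genes relative to CPT-11 alone. SREBF2 was higher and STARD4 lower, so 1 of 8 rose, where 10% of all tested genes did, and 1 of 8 fell, where 12% did. These shares are near the background. The median of the 8 was 0.04, and without CPT-11 replicate 3 the calls numbered 6, with 4 higher and 2 lower, when 3897 of all genes were higher and 3952 lower.

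CPT-11 alone, compared with untreated cells, raised 2 of the 8 genes (INSIG2 and STARD4), beside 8.85% of all tested genes, and lowered 3 (SREBF1, SREBF2 and INSIG1), beside 7.70%. The median of the 8 was -0.05, against -0.0066 over all tested genes, so the set had no common direction. Lovastatin with CPT-11 against untreated cells gave 6 of 8 higher, beside 14.7%, and 0 of 8 lower (0 at an unadjusted p under 0.05 and by voom), beside 14.3%. With the correction for GC content and length, 6 were higher and 2 lower, SREBF1 (-0.31, adjusted p = 0.00078) and SCAP (-0.23, adjusted p = 0.011). Of all genes, 3129 were then higher and 2884 lower. Silenced cells against untreated cells gave 1 of 8 higher (NPC2), beside 18.3%, and 2 of 8 lower (SREBF1 and INSIG1), beside 19.5%. The 3 comparisons with untreated cells share those libraries.

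By mean level, lovastatin with CPT-11 was the highest group for 6 of the 8 genes, and untreated cells for SREBF1 and SCAP. CPT-11 alone was the lowest group for 4 genes (SREBF1, SREBF2, SCAP and INSIG1), silenced cells for STARD4 and NPC1, and untreated cells for INSIG2 and NPC2. Of the 24 pairs of neighbouring groups in these orders, 5 differed at the threshold: 2 for INSIG1, 2 for STARD4 and 1 for SREBF2.

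**Figure D1:**
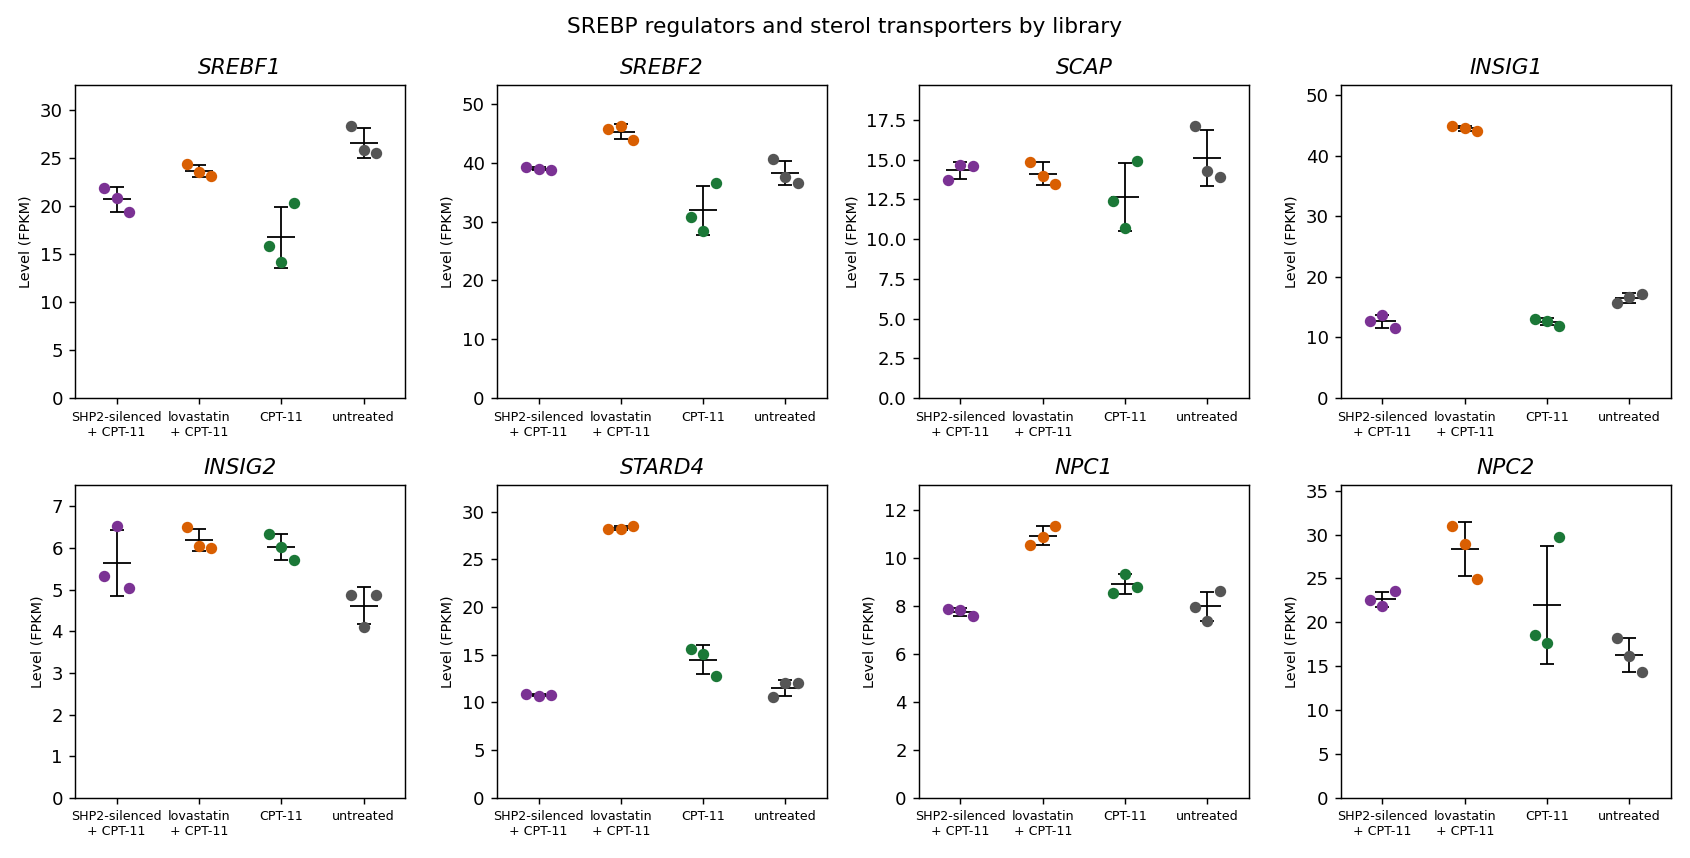
Level of each of the 8 genes in FPKM (vertical axis, from 0) in the 12 libraries, with 1 point per library and bars for the mean ± SD of 3 libraries in each group. INSIG1 at 44.1 to 44.9 FPKM and STARD4 at 28.2 to 28.5 FPKM stand clear of all other groups in the lovastatin libraries, and CPT-11 replicate 3 (right point of its group) lies away from replicates 1 and 2 for SREBF1, SREBF2, SCAP and NPC2.

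SREBF1 encodes SREBP1, the factor that mainly drives fatty acid synthesis genes (ENSG00000072310, chromosome 17, 17810399 to 17837002, minus strand, GRCh38). It measured 21.9, 20.9 and 19.3 FPKM in silenced cells with CPT-11, 24.4, 23.6 and 23.2 FPKM with lovastatin and CPT-11, 15.8, 14.1 and 20.3 FPKM with CPT-11 alone, and 28.4, 25.9 and 25.5 FPKM in untreated cells. Every untreated library was above every treated one, and CPT-11 replicate 3 was the only CPT-11 library within the range of another treated group. SREBF1 fell by 0.65 ± 0.10 with CPT-11 against untreated cells (adjusted p = 0.0017) and by 0.35 ± 0.10 in silenced cells against untreated cells (adjusted p = 0.023). The difference of lovastatin and CPT-11 from untreated cells, -0.16 ± 0.10, did not pass (adjusted p = 0.28), although it was -0.31 (adjusted p = 0.00078) with the correction for GC content and length. Against CPT-11 alone, SREBF1 differed by 0.49 ± 0.10 with lovastatin, which missed the threshold (adjusted p = 0.076) and passed without CPT-11 replicate 3 at 0.63 (adjusted p = 0.00063), with the correction at 0.35 (adjusted p = 0.0078) and by voom at 0.51 (adjusted p = 0.022). For silenced cells the same difference was 0.30 ± 0.10 (adjusted p = 0.058), and it passed without that library at 0.44 (adjusted p = 0.00054), by voom at 0.32 (adjusted p = 0.031) and with library totals at 0.35 (adjusted p = 0.042), but not with the correction, at 0.09 (adjusted p = 0.26). Silenced cells differed from the lovastatin group by -0.19 ± 0.10 (adjusted p = 0.34), which passed with the correction at -0.26 (adjusted p = 0.0078). The call for silenced against untreated cells was lost without silenced replicate 2 or 3 or untreated replicate 1 (adjusted p of 0.055 to 0.079), with no filter on low values (0.063) and with library totals (0.088).

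SREBF2 encodes SREBP2, the factor that mainly drives cholesterol synthesis and uptake genes (ENSG00000198911, chromosome 22, 41833079 to 41907308, plus strand), and had the highest mean level of the 8 per length in each of the 4 groups, with INSIG1 beside it in the lovastatin group. SREBF2 values were 39.3, 39.0 and 38.8 FPKM in silenced cells, 45.8, 46.3 and 43.9 FPKM with lovastatin, 30.9, 28.4 and 36.5 FPKM with CPT-11 alone, and 40.6, 37.6 and 36.6 FPKM in untreated cells. The lovastatin libraries were above all others, and the CPT-11 libraries below all others, with replicate 3 just under the lowest untreated library. SREBF2 was 0.50 ± 0.08 higher with lovastatin than with CPT-11 alone (adjusted p = 0.017) and 0.24 ± 0.08 higher than in untreated cells (adjusted p = 0.040). In silenced cells it was 0.29 ± 0.08 higher than with CPT-11 alone (adjusted p = 0.026) and differed by 0.03 ± 0.08 from untreated cells (adjusted p = 0.80). With CPT-11 alone it fell by 0.26 ± 0.08 against untreated cells (adjusted p = 0.041). All 4 calls lay close to the threshold. The call over CPT-11 with lovastatin was lost without any lovastatin library or CPT-11 replicate 1 or 2 (adjusted p of 0.052 to 0.093), and that of silenced cells without any silenced library or CPT-11 replicate 1 or 2 (0.061 to 0.10). Against untreated cells, the lovastatin call was lost on leaving out any silenced or lovastatin library or untreated replicate 2 or 3 (0.055 to 0.13), and the CPT-11 call on leaving out any library other than CPT-11 replicate 3 (0.055 to 0.13). For this and the other genes, leaving out a library of a group not compared left the log2 difference unchanged. Only its SE and adjusted p moved, since all groups share 1 estimate of the spread. With only the groups compared in the fit, SREBF2 no longer passed with lovastatin against CPT-11 (adjusted p = 0.25), in silenced cells against CPT-11 (0.10) or with CPT-11 against untreated cells (0.18). With no filter it no longer passed in silenced cells against CPT-11 (0.066), or with lovastatin (0.093) or CPT-11 (0.10) against untreated cells. Silenced cells differed from the lovastatin group by -0.21 ± 0.08 (adjusted p = 0.14), a difference that passed without CPT-11 replicate 3 (adjusted p = 0.016), with only those groups (0.011) and with the correction for GC content and length (-0.24, adjusted p = 0.0051).

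The balance of the 2 factors was compared as a ratio within each library. SREBF2 over SREBF1 was 1.89 ± 0.107 in silenced cells, 1.91 ± 0.047 with lovastatin, 1.92 ± 0.110 with CPT-11 alone and 1.44 ± 0.012 in untreated cells, as a ratio of FPKM, which is per length. The 9 treated libraries all lay above the 3 untreated ones, and the 3 treated groups overlapped. An exact two-sided permutation test gave p = 0.1 for each treated group against untreated cells, the smallest p that 3 against 3 libraries allow (0.15 adjusted over the 12 comparisons of both ratios), and p of 0.7 to 1 between treated groups.

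**Figure D2:**
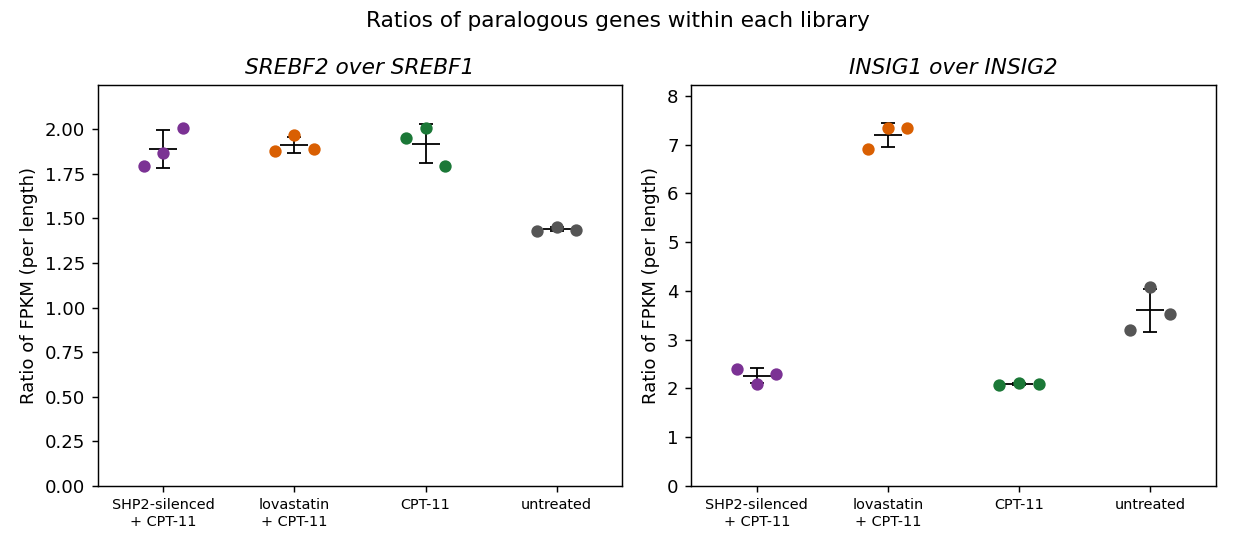
Ratio of FPKM values within each library (vertical axis, from 0) for SREBF2 over SREBF1 and for INSIG1 over INSIG2, with 1 point per library and bars for the mean ± SD of 3 libraries. The SREBF2 ratio is 1.79 to 2.01 in all treated libraries and 1.43 to 1.45 in untreated ones, while the INSIG ratio sets the lovastatin libraries apart at 6.91 to 7.34.

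Both factor genes host a microRNA of the miR-33 family, which is known to repress genes of cholesterol export. The mature sequences (RefSeq, GRCh38.p14) are shown since both share the seed, bases 2 to 8, in capitals.
hsa-miR-33a-5p, in SREBF2: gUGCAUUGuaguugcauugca
hsa-miR-33b-5p, in SREBF1: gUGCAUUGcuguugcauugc
The precursor rows held 0 to 2 reads per library for MIR33A and 0 to 5 reads for MIR33B, too few to compare groups, and neither passed the filter. Other rows overlap the factor genes on the opposite strand, RAI1 over 1055 bases of SREBF1 and SREBF2-AS1 over 1587 bases of SREBF2. SREBF2-AS1 measured 2.27 to 3.13 FPKM per library, and with the strand setting of the counting unknown, reads of such partners cannot be told apart.

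SCAP, the sensor that escorts both factors (ENSG00000114650, chromosome 3, 47413694 to 47477126, minus strand), had group means of 12.7 to 15.1 FPKM. Its values were 13.7, 14.7 and 14.6 FPKM in silenced cells, 14.9, 14.0 and 13.5 FPKM with lovastatin, 12.4, 10.7 and 14.9 FPKM with CPT-11 alone, and 17.1, 14.3 and 13.9 FPKM in untreated cells. All groups overlapped, and no comparison passed, with log2 differences from -0.24 ± 0.11 for CPT-11 against untreated cells (adjusted p = 0.15) to 0.18 ± 0.11 for silenced cells against CPT-11 alone (adjusted p = 0.24). Between lovastatin and CPT-11 it differed by 0.16, with a 95% interval of -0.08 to 0.39. Without CPT-11 replicate 3, SCAP passed in 3 comparisons: CPT-11 differed from untreated cells by -0.36 (adjusted p = 0.014), lovastatin from CPT-11 by 0.27 (adjusted p = 0.042) and silenced cells from CPT-11 by 0.29 (adjusted p = 0.022). With the correction for GC content and length, SCAP, at 62.3% GC in its longest transcript, was lower than in untreated cells in each treated group, by log2 differences of -0.28 in silenced cells (adjusted p = 0.0031), -0.23 with lovastatin (adjusted p = 0.011) and -0.25 with CPT-11 alone (adjusted p = 0.011).

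INSIG1, which retains SCAP in the endoplasmic reticulum and is itself a known target of SREBP (ENSG00000186480, chromosome 7, 155297776 to 155310235, plus strand), gave the largest difference of the 8 genes. It measured 12.8, 13.7 and 11.6 FPKM in silenced cells, 44.9, 44.5 and 44.1 FPKM with lovastatin, 13.1, 12.7 and 11.9 FPKM with CPT-11 alone, and 15.6, 16.7 and 17.2 FPKM in untreated cells. The lovastatin libraries were far above all others, the untreated libraries came next without overlap, and silenced and CPT-11 libraries overlapped. With lovastatin, INSIG1 was 1.75 ± 0.06 higher than with CPT-11 alone (adjusted p = 1.2e-07), a 3.54-fold ratio of mean FPKM, and had the smallest p of all 18062 genes in that comparison. Against untreated cells it was 1.38 ± 0.06 higher (adjusted p = 1.5e-07), and silenced cells differed from the lovastatin group by -1.74 ± 0.06 (adjusted p = 6.3e-08). INSIG1 fell by 0.37 ± 0.06 with CPT-11 alone (adjusted p = 0.0025) and by 0.36 ± 0.06 in silenced cells with CPT-11 (adjusted p = 0.0012), both against the same untreated libraries. Between silenced cells and CPT-11 alone the difference was 0.01, with a 95% interval of -0.13 to 0.15 (adjusted p = 0.92). All 5 calls of INSIG1 held under every one of the 19 alternative settings.

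INSIG2, a paralogue with the same retention function (ENSG00000125629, chromosome 2, 118088452 to 118110997, plus strand), was the lowest of the 8 per length and rested on 257 to 436 reads per library. It measured 5.33, 6.54 and 5.04 FPKM in silenced cells, 6.49, 6.06 and 6.01 FPKM with lovastatin, 6.33, 6.02 and 5.72 FPKM with CPT-11 alone, and 4.88, 4.10 and 4.87 FPKM in untreated cells. All treated libraries were above all untreated ones, and the treated groups overlapped. INSIG2 was 0.32 ± 0.09 higher with CPT-11 (adjusted p = 0.034) and 0.36 ± 0.09 higher with lovastatin and CPT-11 (adjusted p = 0.014) than in untreated cells, and in silenced cells the difference of 0.24 ± 0.09 missed the threshold (adjusted p = 0.063). Between lovastatin and CPT-11 alone it differed by 0.03, with a 95% interval of -0.17 to 0.24 (adjusted p = 0.86), a range that excludes a change of the size seen in INSIG1. The CPT-11 call was lost without lovastatin replicate 2, CPT-11 replicate 1 or 2, or any untreated library (adjusted p of 0.050 to 0.13), with no filter (0.074) and with only those groups (0.097), and the lovastatin call without lovastatin replicate 1 or untreated replicate 2 (0.052 to 0.061). In silenced cells the difference passed with scaling to library totals (0.32, adjusted p = 0.019) and with the correction for GC content and length (0.50, adjusted p = 0.0034).

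The ratio of INSIG1 to INSIG2 separated 3 levels. It was 2.26 ± 0.157 in silenced cells, 7.199 ± 0.247 with lovastatin, 2.09 ± 0.024 with CPT-11 alone and 3.60 ± 0.443 in untreated cells. The lovastatin libraries were highest, the untreated libraries intermediate, and the other treated libraries lowest, with overlap only between silenced cells and CPT-11 alone. The exact two-sided permutation p was 0.1 for each pair of groups that did not overlap (0.15 adjusted over 12), the smallest possible, and 0.2 for silenced cells against CPT-11 alone.

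STARD4, a soluble carrier of cholesterol between membranes and a known SREBP2 target (ENSG00000164211, chromosome 5, 111496033 to 111512590, minus strand), was second to INSIG1 in its difference with lovastatin. It measured 10.9, 10.7 and 10.8 FPKM in silenced cells, 28.2, 28.2 and 28.5 FPKM with lovastatin, 15.6, 15.1 and 12.8 FPKM with CPT-11 alone, and 10.6, 12.008 and 12.002 FPKM in untreated cells. The lovastatin libraries were above all others, and the CPT-11 libraries were above both remaining groups, which overlapped each other. With lovastatin, STARD4 was 0.92 ± 0.07 higher than with CPT-11 alone (adjusted p = 6.7e-05) and 1.23 ± 0.07 higher than in untreated cells (adjusted p = 9.4e-07). Silenced cells differed from the lovastatin group by -1.31 ± 0.07 (adjusted p = 2.3e-06). STARD4 rose by 0.30 ± 0.07 with CPT-11 against untreated cells (adjusted p = 0.016) and fell by 0.39 ± 0.07 in silenced cells against CPT-11 alone (adjusted p = 0.0072). The CPT-11 call was lost without CPT-11 replicate 1 or 2 or untreated replicate 1 (adjusted p of 0.051 to 0.062) and with only those groups (0.12). The call in silenced cells was lost with only those groups (adjusted p = 0.061), and with a correction for GC content and length the difference was -0.09 (adjusted p = 0.22). STARD4 has the lowest GC content of the 8, at 34.2% in its longest transcript, and under the same correction silenced cells were 0.22 above untreated cells (adjusted p = 0.0036), where the uncorrected difference was -0.09 ± 0.07 (adjusted p = 0.38).

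The bases upstream of SREBF2, INSIG1 and STARD4, the 3 genes that rose with lovastatin over CPT-11, are shown from RefSeq (GRCh38.p14), which lists a promoter for all 8 genes. Each begins 250 bases before the RefSeq start site and stops where the annotated gene begins. Capitals mark TCACNCCAC (a sterol regulatory element of SREBP), CCAAT (the box of NF-Y, a cofactor of SREBP) and GGGCGG (a GC box), searched on both strands.
SREBF2, chr22:41832855-41833078, plus strand: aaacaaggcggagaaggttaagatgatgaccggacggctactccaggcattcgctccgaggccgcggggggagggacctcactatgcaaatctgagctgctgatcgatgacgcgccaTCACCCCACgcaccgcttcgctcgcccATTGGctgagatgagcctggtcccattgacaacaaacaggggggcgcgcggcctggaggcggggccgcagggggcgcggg
INSIG1, chr7:155297628-155297775, plus strand: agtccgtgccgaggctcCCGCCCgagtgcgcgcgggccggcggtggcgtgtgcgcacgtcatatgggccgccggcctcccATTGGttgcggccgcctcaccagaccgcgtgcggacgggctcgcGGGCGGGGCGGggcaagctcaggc
STARD4, chr5:111512591-111512785, minus strand: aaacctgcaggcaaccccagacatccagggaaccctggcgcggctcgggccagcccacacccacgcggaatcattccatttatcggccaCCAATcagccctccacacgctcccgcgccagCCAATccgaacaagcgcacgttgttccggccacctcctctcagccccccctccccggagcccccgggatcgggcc
The sterol regulatory element matched once, 133 bases before the start of SREBF2, and in no other window of the 8 genes, where 0.883% of 35116 promoters of the same 250 bases held it. No match says only that these letters are not in the window. A CCAAT box lay 106 bases before the start of SREBF2 and 170 bases before that of INSIG1, both on the opposite strand, and 161 and 130 bases before that of STARD4. Of the other genes, NPC2 held CCAAT before the first of its RefSeq starts, and 32.0% of all promoters held one. GGGCGG was in every window of the 8 genes, against 42.6% of all promoters, in part downstream of the bases printed. INSIG2 and NPC2 have 2 RefSeq starts each, and so 2 windows searched. The windows of SCAP, NPC1 and both starts of NPC2 lay wholly inside the annotated gene. A match is a description of letters and not of bound factor. The printed bases of SREBF2 lie within SREBF2-AS1, and those of STARD4 within STARD4-AS1, each on the opposite strand.

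NPC1, the lysosomal membrane protein that exports cholesterol (ENSG00000141458, chromosome 18, 23506184 to 23586898, minus strand), was higher with lovastatin than in untreated and in silenced cells. Its values were 7.88, 7.81 and 7.57 FPKM in silenced cells, 10.6, 10.9 and 11.3 FPKM with lovastatin, 8.54, 9.35 and 8.80 FPKM with CPT-11 alone, and 7.95, 7.38 and 8.61 FPKM in untreated cells. Lovastatin libraries were above all others, and silenced libraries lay below CPT-11 libraries and within the untreated range. NPC1 was 0.41 ± 0.06 higher with lovastatin than in untreated cells (adjusted p = 0.00071), and silenced cells differed from the lovastatin group by -0.44 ± 0.06 (adjusted p = 0.0018). Both calls held under all 19 alternatives. The difference between lovastatin and CPT-11 alone, 0.27 ± 0.06, missed the threshold (adjusted p = 0.11) and passed without CPT-11 replicate 3 (0.26, adjusted p = 0.015) and with the correction for GC content and length (0.28, adjusted p = 0.035). Between silenced cells and CPT-11 alone the NPC1 difference was -0.18 ± 0.06 (adjusted p = 0.065), which passed without CPT-11 replicate 3 (-0.18, adjusted p = 0.047). RMC1 lies on the opposite strand over 25624 bases of the gene's span and measured 9.81 to 14.9 FPKM per library.

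NPC2, the soluble lysosomal protein that hands cholesterol to NPC1 (ENSG00000119655, chromosome 14, 74476192 to 74494177, minus strand), had the widest spread within a group. It measured 22.5, 21.8 and 23.5 FPKM in silenced cells, 31.0, 28.9 and 24.96 FPKM with lovastatin, 18.5, 17.7 and 29.7 FPKM with CPT-11 alone, and 18.2, 16.1 and 14.3 FPKM in untreated cells. Silenced and lovastatin libraries were all above the untreated ones, and CPT-11 replicate 3 lay among the lovastatin libraries while replicates 1 and 2 lay near the untreated ones. NPC2 was 0.77 ± 0.16 higher with lovastatin than in untreated cells (adjusted p = 0.0051), a call that held under all 19 alternatives. In silenced cells it was 0.46 ± 0.16 higher than in untreated cells (adjusted p = 0.045), a call lost without any silenced library, lovastatin replicate 1 or 2, or untreated replicate 2 or 3 (adjusted p of 0.052 to 0.15) and with no filter (0.12), and the difference in CPT-11 cells, 0.38 ± 0.16, did not pass (adjusted p = 0.14). Against CPT-11 alone the lovastatin group differed by 0.38 ± 0.16 (adjusted p = 0.23), and by 0.61 (adjusted p = 0.0021) without CPT-11 replicate 3. For silenced cells the difference from CPT-11 alone was 0.08 (adjusted p = 0.75), and 0.31 (adjusted p = 0.029) without that library. Their difference from the lovastatin group, -0.31 ± 0.16 (adjusted p = 0.31), passed without CPT-11 replicate 3 (adjusted p = 0.045) and with only those groups (0.040). NPC1 and NPC2 act in the same export step, but CPT-11 replicate 3 was high for NPC2 and between replicates 1 and 2 for NPC1.

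**Figure D3:**
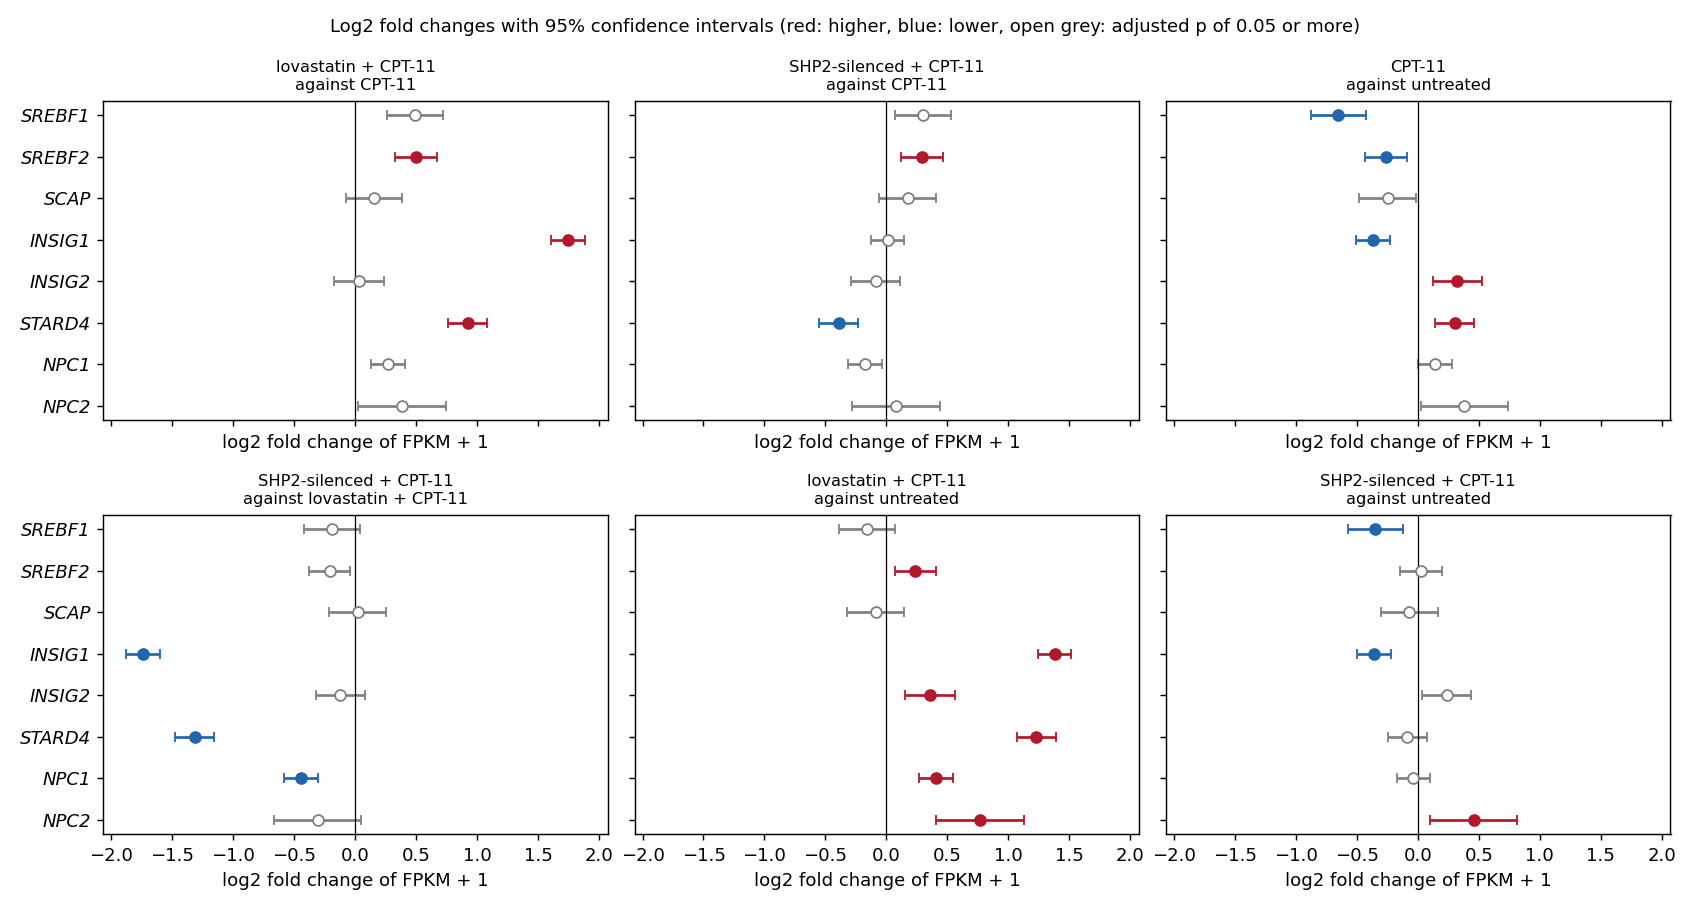
Log2 fold change of FPKM + 1 (horizontal axis) with its 95% confidence interval for the 8 genes in the 6 comparisons between groups, with red for higher, blue for lower and open grey for an adjusted p of 0.05 or more. INSIG1 and STARD4 show the largest differences wherever the lovastatin group takes part, at 1.75 and 0.92 over CPT-11 alone, and INSIG1 lies at 0.01 in silenced cells against CPT-11 alone.

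The displacement of CPT-11 replicate 3 differed among the 8 genes. Relative to the mean of replicates 1 and 2 it was 0.42 for SREBF1, 0.35 for SCAP and 0.29 for SREBF2, whose longest transcripts have 62.8%, 62.3% and 57.1% GC. It was -0.25 for STARD4, -0.09 for INSIG2 and -0.10 for INSIG1, at 34.2%, 35.4% and 46.0% GC. Of the 8 genes, 6 lay within the quartiles of all tested genes in the same bin of GC content, and INSIG2 and NPC2 lay above them. NPC2, at 44.3% GC, was displaced by 0.69, where genes of 40 to 45% GC had a median of -0.15. What set this library apart was not tested.

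**Figure D4:**
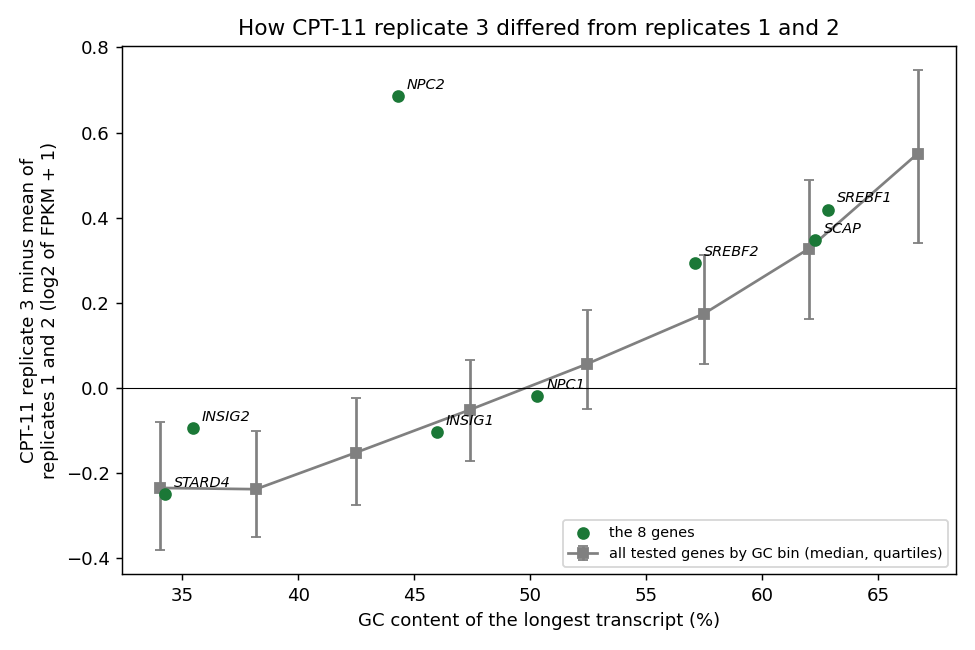
Difference of CPT-11 replicate 3 from the mean of CPT-11 replicates 1 and 2 (vertical axis, log2 of FPKM + 1) against GC content of the longest transcript (horizontal axis, %), for the 8 genes (green) and for all tested genes in bins of GC content (grey squares at the bin medians, bars for the quartiles). SREBF1, SCAP, SREBF2 and STARD4 follow the grey line, and NPC2 at 0.69 lies far above it.

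The other genes of the pathway were described from 5 lists. Among 20 genes of cholesterol synthesis that are SREBP2 targets, 19 were higher with lovastatin than with CPT-11 alone and 0 lower (0 at an unadjusted p under 0.05 and by voom), with a median log2 fold change of 1.13. Of all tested genes, 0.393% were higher and 0.0720% lower in this comparison, so 0 lower in a list is near the background. FDFT1, which makes squalene, was 1.32 ± 0.05 higher (adjusted p = 1.2e-07) and MSMO1, a sterol demethylase, 1.36 ± 0.06 higher (adjusted p = 5.6e-07). INSIG1 at 1.75 lay above the median of that list and STARD4 at 0.92 below it. In the fatty acid list, 6 of 15 SREBP1 targets were higher, beside the same 0.393%, and 0 lower (0 at an unadjusted p under 0.05 and by voom), beside 0.0720%, with a median of 0.40. SCD, a fatty acid desaturase, was 1.20 ± 0.05 higher (adjusted p = 1.2e-07) and ACSS2, an acetyl-CoA synthetase, 1.19 ± 0.07 higher (adjusted p = 3.6e-06).

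The machinery around SCAP was described in the same way. Of 18 tested genes of SREBP processing and degradation, 0 passed in either direction with lovastatin against CPT-11 (by limma, 1 higher and 3 lower at an unadjusted p under 0.05, and 0 by voom), and the median was -0.01. This is near the shares of all tested genes (0.393% higher and 0.0720% lower). In silenced cells against CPT-11 alone, 1 of the 18 was higher, beside 10% of all tested genes, and 7 were lower, beside 12%, with a median of -0.16. In this comparison the calls over all genes ran from 1007 to 7849 on leaving out 1 library, and GC slopes differed between the groups (0.10 to 0.13 in silenced libraries, against -0.17 to 0.08 with CPT-11 alone), whose part in the list's count was not tested. The lower ones included the COPII coat genes SEC24D (-0.56 ± 0.07, adjusted p = 0.0011), SEC23A (-0.35 ± 0.07, adjusted p = 0.011) and SEC24B (-0.41 ± 0.10, adjusted p = 0.018), whose coat carries SCAP to the Golgi. The remaining COPII genes of the list ran from -0.36 to -0.01 in the same comparison. With lovastatin against CPT-11 alone, SEC24D differed by -0.07, SEC23A by -0.11 and SEC24B by -0.35 ± 0.10 (adjusted p = 0.15). With CPT-11 against untreated cells, 1 of the 18 was higher and 2 lower, near the shares of all tested genes (8.85% and 7.70%). The higher one was FBXW7, a ubiquitin ligase subunit that targets nuclear SREBP for degradation, at 4.83 ± 0.642 FPKM with CPT-11 and 3.08 ± 0.0718 FPKM in untreated cells (0.51 ± 0.08, adjusted p = 0.0019). FBXW7 also differed from untreated cells by 0.53 ± 0.08 with lovastatin and CPT-11 (adjusted p = 0.00085) and by 0.40 in silenced cells.

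Genes of lysosomal and intracellular sterol transport are the class of STARD4, NPC1 and NPC2. With lovastatin against CPT-11, 1 of 30 was higher, beside 0.393% of all tested genes, and 0 lower (3 lower at an unadjusted p under 0.05, 0 by voom), beside 0.0720%. The median of the list was -0.02. The higher gene was TMEM97, a sterol-regulated protein that binds NPC1, at 38.7 ± 1.33 FPKM with lovastatin and 24.9 ± 1.61 FPKM with CPT-11 alone (0.62 ± 0.06, adjusted p = 0.00049). With CPT-11 against untreated cells, 2 of the 30 were higher and 3 lower, near the shares of all tested genes (8.85% and 7.70%). The 3 with the smallest p were STARD10, a lipid transfer protein (0.50 ± 0.09, adjusted p = 0.0028), LAMP1, a lysosomal membrane protein (-0.21 ± 0.04, adjusted p = 0.0071), and LIPA, the lysosomal acid lipase that frees cholesterol from its esters (0.27 ± 0.06, adjusted p = 0.015). Of 16 genes of receptor-mediated uptake, 2 were higher with lovastatin than with CPT-11 alone, beside 0.393%, and 0 lower (1 lower at an unadjusted p under 0.05, 0 by voom), beside 0.0720%. With CPT-11 against untreated cells 0 of the 16 were lower (2 lower at an unadjusted p under 0.05, 0 by voom), beside 7.70%, and 1 was higher, beside 8.85%. This was LRP1, a scavenging lipoprotein receptor, at 4.37 ± 0.345 FPKM with CPT-11 and 1.79 ± 0.115 FPKM in untreated cells (0.94 ± 0.07, adjusted p = 1.1e-05).

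**Figure D5:**
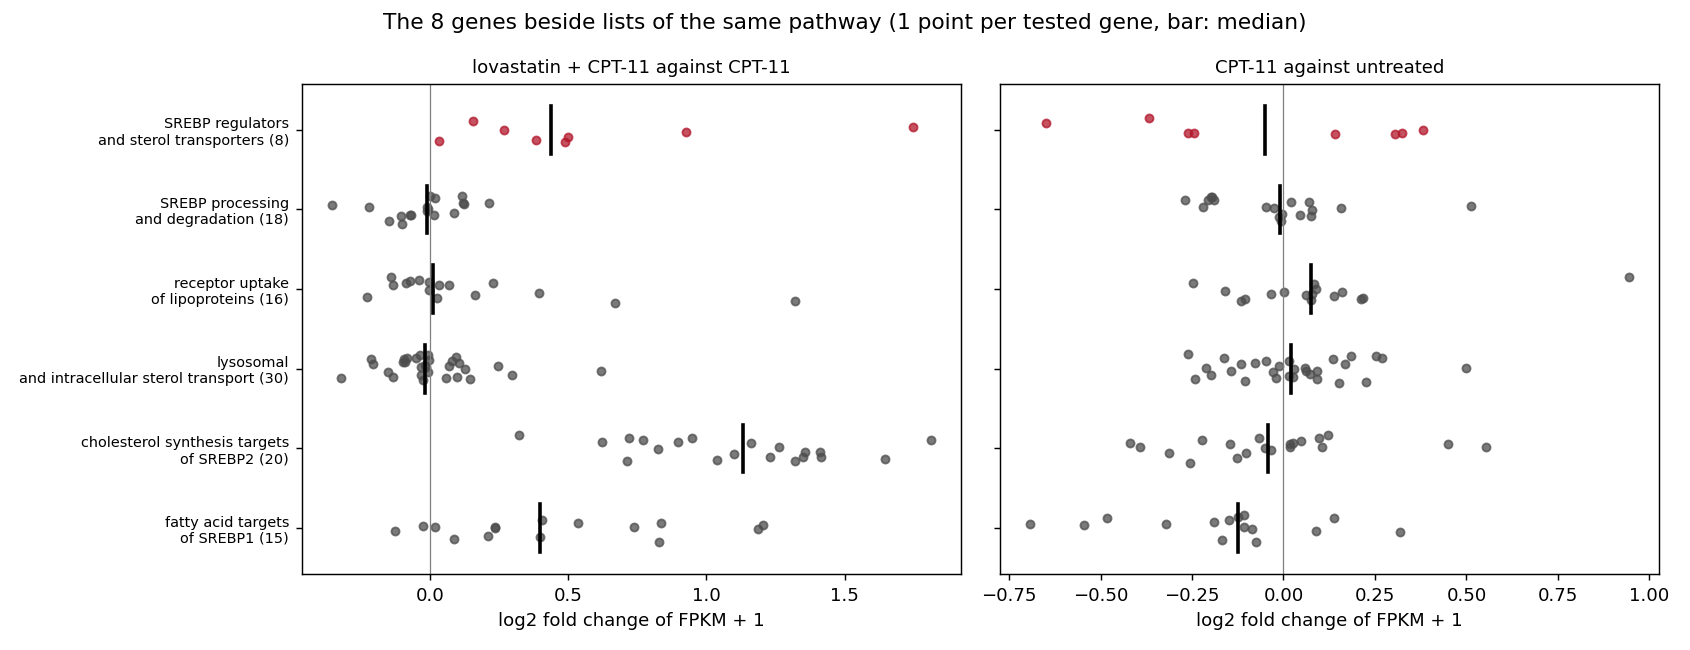
Log2 fold change of FPKM + 1 (horizontal axes) for the 8 genes (red) and for the tested genes of 5 pathway lists (grey), with 1 point per gene and a bar at the median, for lovastatin and CPT-11 against CPT-11 (left) and CPT-11 against untreated cells (right). Cholesterol synthesis genes centre on 1.13 with lovastatin, and the lists of SREBP processing and sterol transport centre on -0.01 and -0.02.

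The 8 genes fell into different companies when all other protein-coding genes past the filter, 13735 of them, were ranked by Pearson r of log2(FPKM + 1) over the 12 libraries. The 12 points come from 4 groups and share their library scaling and GC slopes, so r mixes group levels with shifts of single libraries. For SCAP, whose groups all overlapped, r does not rest on group levels alone. The closest genes to INSIG1 were LPIN1 (r = 0.990), FDFT1 (0.985) and SQLE (0.985), and those to STARD4 were TUBA1A (0.984), IDI1 (0.983) and ACSS2 (0.973). NPC1 had the same 3 nearest genes as STARD4, with r of 0.918 to 0.941. SREBF1 was nearest to SLC29A2 (0.963), SREBF2 to IER2 (0.965), SCAP to CTBP1 (0.970), INSIG2 to SIAE (0.942) and NPC2 to TYK2 (0.977). None of the 3 nearest genes of SREBF1, SREBF2, SCAP, INSIG2 or NPC2 was on the lists of synthesis genes above.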

How the data were processed

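Total RNA from HCT-116 cells was extracted with Trizol and made into NEBNext Ultra libraries, per the labels' protocols. Per the submitters' processing notes, the tools were featureCounts 1.5.0-p3, HISAT2 2.0.5, DESeq2 1.16.1 and StringTie 1.3.3b on hg19, whereas 58735 of 58735 Ensembl features in the table carry the coordinates of GENCODE release 29 on GRCh38, which are used here. The authors deposited FPKM values. How strand and multiply mapped reads were set is not given in the sources used here. FPKM times gene length was a whole multiple of 1 read in 100% of nonzero values (within 0.01), which gave the read numbers.

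Log2(FPKM + 1) values, whose fold changes understate low genes, were tested with limma 3.58.1 (R 4.3.3; variance trend) in 1 model of all 12 libraries, for genes with at least 10 scaled reads in at least 3 libraries and 15 reads in total. FPKM is not a count, so edgeR was not used; the reads recovered were tested with voom as an alternative. Other alternatives were a pseudocount of 0.1 FPKM, no filter, only the groups compared, library totals, a replicate block, each library left out, and a correction for GC content and length chosen after seeing the data. Same-numbered libraries did not deviate together (r of -0.39 to 0.17, over 0.1 in 2 of 18 pairs) and were not treated as paired. The 8 genes, the pathway lists and the marker lists were chosen with earlier results of these data known. Named were the 8 genes, up to 3 genes per list and comparison with the smallest p, the 3 genes most like each of the 8, overlapping genes, PTPN11 and HMGCS1. A few such genes are not reported here. P-values below 0.05 after adjustment were called.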

Additional observations from a re-analysis of the deposited data

How the results depend on the processing

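Of the 22 calls among 48 member values, 12 held under all 19 alternatives. Of 912 alternative values 813 kept their side of the threshold, 71 lost the threshold and 27 gained it. In 1 the direction turned and passed: STARD4 in silenced against untreated cells, 0.22 with the correction for GC content and length. The 813 include values that changed sign without passing in either fit. An example is INSIG2 in silenced cells against CPT-11, at -0.09 in the main fit and 0.18 with the correction. Counts of genes called moved by over 1.5 times as follows. In silenced cells against CPT-11 (3974), 1750 were called with no filter, 451 with only those groups and 2356 in the fit with a replicate block. For silenced cells against lovastatin (1235) the counts were 2438 with only those groups, 767 with the block and 2142 with the GC and length correction. Lovastatin against CPT-11 (84) gave 36 with only those groups, 141 by voom, 46 with the block and 253 with the correction. CPT-11 against untreated cells (2989) gave 1154 with only those groups.

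Of the 8 genes, CPT-11 against untreated cells (5) kept 3 with no filter, 2 with only those groups and 3 with the replicate block. Silenced cells against CPT-11 (2) had 1 with no filter, 0 with only those groups (limma, adjusted p = 0.061 for STARD4 and 0.10 for SREBF2), 1 with the block and 1 with the correction. Silenced cells against lovastatin (3) had 5 with only those groups and 5 with the correction, lovastatin against CPT-11 (3) had 5 with the correction, and silenced against untreated cells (3) had 1 with no filter and 6 with the correction. Counts of all genes not given above were 2004 (no filter) and 2275 (block) for CPT-11 against untreated cells, beside 2989. For silenced cells against CPT-11 the correction gave 3017, beside 3974. Silenced against untreated cells gave 5302 (no filter) and 7057 (correction), beside 6828. The cause of these moves was not tested. The 4 SREBF2 calls (with lovastatin and in silenced cells against CPT-11, with lovastatin and with CPT-11 against untreated cells) were each lost with the replicate block, at adjusted p of 0.068, 0.051, 0.068 and 0.075, as were INSIG2 with CPT-11 (0.065) and NPC2 in silenced cells (0.070) against untreated cells.

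Leaving out 1 library at a time gave 1007 to 7849 genes and 1 to 6 of the 8 for silenced cells against CPT-11, and 598 to 2452 and 3 to 5 for silenced cells against lovastatin. It gave 41 to 5455 and 2 to 7 for lovastatin against CPT-11, 1931 to 4420 and 2 to 6 for CPT-11 against untreated cells. The highest count of genes in each of these 4 comparisons came without CPT-11 replicate 3. Silenced against untreated cells gave 5134 to 8229 genes and 1 to 3 of the 8. INSIG2, with 257 to 436 reads per library, had the least depth.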

Other observations

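Genes around the 8 also differed between silenced and untreated cells, a comparison with many calls (18.3% of all tested genes higher and 19.5% lower by limma). Of 18 genes of SREBP processing and degradation, 3 were higher and 8 lower, with a median log2 fold change of -0.15. SEC24B and SEC23A, parts of the COPII coat, differed by -0.68 ± 0.10 (adjusted p = 0.00036) and -0.54 ± 0.07 (adjusted p = 0.00025), and ERLIN1, a membrane protein of the endoplasmic reticulum, by -0.43 ± 0.06 (adjusted p = 0.00031). The remaining COPII genes of the list ran from -0.48 to 0.06. Lovastatin with CPT-11 differed from the same untreated libraries by -0.62 ± 0.10 for SEC24B (adjusted p = 0.00082) and -0.42 ± 0.06 for ERLIN1 (adjusted p = 0.00047). For SEC23A that difference was -0.30. With CPT-11 alone, the differences from untreated cells were -0.27 for SEC24B, -0.19 for SEC23A and -0.20 ± 0.06 for ERLIN1 (adjusted p = 0.047). Between silenced cells and the lovastatin group the differences were -0.05 for SEC24B, -0.01 for ERLIN1 and -0.25 for SEC23A. CLTC, which encodes clathrin heavy chain, measured 61.4 ± 2.24 FPKM in silenced cells and 87.5 ± 3.79 FPKM in untreated cells (-0.50 ± 0.05, adjusted p = 4.9e-05). Its difference from untreated cells was -0.23 with lovastatin and -0.16 ± 0.05 with CPT-11 alone (adjusted p = 0.069). LRP1 measured 4.53 ± 0.166 FPKM in silenced cells, 4.36 ± 0.259 FPKM with lovastatin, 4.37 ± 0.345 FPKM with CPT-11 alone and 1.79 ± 0.115 FPKM in untreated cells, so that all treated groups, which share that reference, lay above it. The slope of the relative log2 values on GC content also differed between silenced and untreated libraries (0.10 to 0.13 and -0.14 to -0.01 per 10 points of GC). Its part in the values of these genes was not tested.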
